A study of Brassica napus with 6 samples.

Results

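The miRNA families miR319 and miR159 were followed in the shoot apex of Brassica napus (oilseed rape), through their abundance and through the transcripts at which cleavage was listed for them. Members were every known miRNA named miR319 or miR159 and every degradome record under such a name, whatever its species prefix. This gave 3 of the 401 listed miRNAs, bna-miR319a, bna-miR319b and bna-miR159a, and 69 of the 1089 degradome records, 36 of 535 in the normal library and 33 of 554 in the rod-like library. Normal plants and plants of a form that the labels name rod-like grew in one field, and their apices were taken when bolting began, at 3 months of age. Each RNA sample pooled 6 plants, and the labels give no cultivar, genotype or treatment for either form. Small RNA counts came as 2 files per plant type, and degradome records, made from the 5′ ends of cleaved transcripts, came from 1 library per plant type. No mRNA levels were used here, so the labelled tissue could not be checked against marker genes.

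Plant miRNAs guide Argonaute proteins to nearly complementary sites in mRNAs, which are then cut opposite the middle of the miRNA. Both families are thought to share an origin and resemble each other closely in sequence. In Arabidopsis, miR319 acts on TCP transcription factors that restrain cell division in growing leaves, and miR159 acts on GAMYB-type MYB transcription factors, which are best known from anther and seed development. Excess miR319 in Arabidopsis gives crinkled leaves, and loss of miR159 gives stunted plants with curled leaves.

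The degradome alignments print the mature sequences, which are shown because the 2 families differ by so little. The seed, bases 2 to 8 from the 5′ end, is in capitals, and T stands for U as in the deposited records.
ath-miR319c: tTGGACTGaagggagctcctt
bra-miR319-3p: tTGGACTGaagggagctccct
ath-miR159a: tTTGGATTgaagggagctc
The miR319 names shared a seed and were identical at 20 of 21 bases, with the substitution T20C from ath-miR319c to bra-miR319-3p, counted from the 5′ end. The printed ath-miR159a had 19 bases and another seed, because its sequence begins 1 base earlier. Shifted by that base, ath-miR159a and ath-miR319c were identical at 17 of 18 bases and differed by C6T, counted from the 5′ end of ath-miR319c. The names beginning bna in the small RNA files were not joined to these sequences.

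All 3 members stood lower in the rod-like files than in the normal files, but for bna-miR159a the few counts do not settle by how much, and whether the counting interval of its ratio included 1 depended on the choices given below. Values are reads per 1000000 listed miRNA reads (RPM) after TMM scaling. For bna-miR319a the normal files held 413 and 422 counts (651 and 649 RPM) and the rod-like files 119 and 137 counts (171 and 197 RPM). For bna-miR319b the normal files held 38 and 41 counts (59.9 and 63.0 RPM), and the rod-like files 0 and 4 counts (0 and 5.75 RPM). A count of 0 in the first rod-like file allows up to 4.30 RPM. For bna-miR159a the normal files held 8 and 7 counts (12.6 and 10.8 RPM) and the rod-like files 2 and 2 counts (2.87 and 2.88 RPM). The files of the plant types did not overlap for any member, each being lower in both rod-like files, which held for 27.9% of the 401 listed miRNAs.

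**Figure D1:**
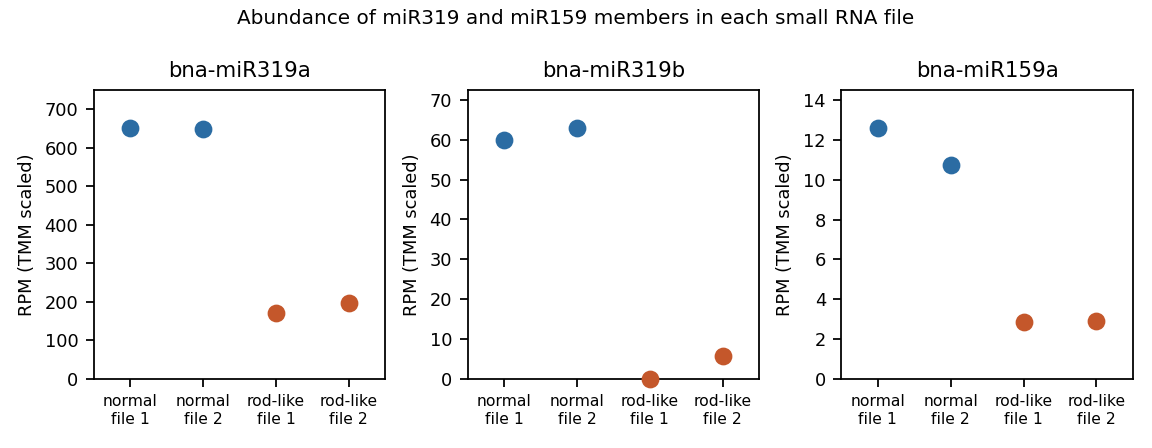
Abundance of each member (RPM after TMM scaling, linear axes that start at 0) in the 2 normal files (blue) and the 2 rod-like files (orange). In each panel both normal files lie above both rod-like files, with 651 and 649 against 171 and 197 RPM for bna-miR319a.

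Files of one plant type agreed within counting noise and stand for 1 sample, so n = 1 per plant type. The chi-square test between them, on miRNAs summing to 10 counts or more, gave p = 0.952 (normal) and p = 0.246 (rod-like). The difference between plant types therefore had no replicate check. Ratios below use mean counts per file, and their exact 95% intervals reflect counting error alone. If the files of a plant type hold different reads of 1 library, which the labels do not say, the counting error rests on the summed counts and the intervals are narrower. Listed counts per file ranged from 625795 to 713637, which covers known and predicted miRNAs only.

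The ratio was firmest for bna-miR319a, which in rod-like plants was 3.54-fold lower, with a 95% counting interval of 2.89 to 4.35. For bna-miR319b the ratio was 21.4-fold lower, but with 2 counts per rod-like file on average the interval ran from 5.55 to 183. The ratio of bna-miR159a, 4.07-fold lower, had an interval from 0.794 to 39.7 on mean counts, which includes 1. From the summed counts, an alternative added after seeing the data, the interval was 1.30 to 16.8, and with scaling on known miRNAs alone bna-miR159a had a ratio of 0.174 (0.0179 to 0.893), and neither interval includes 1. Summed over bna-miR319a and bna-miR319b, the family went from 712 to 187 RPM, 3.81-fold lower (3.13 to 4.67).

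Both miR319 members passed edgeR's quasi-likelihood test as lower, with Benjamini-Hochberg adjusted p = 3.0e-38 for bna-miR319a (log2 fold change -1.82) and 1.9e-14 for bna-miR319b (-4.33). These p-values measure only the spread between files of a plant type. Of 391 miRNAs tested, 11.5% were called lower and 16.6% higher, 45 and 65 miRNAs, and the split was 58 lower and 55 higher with scaling by the total count. The fold change of bna-miR319b was -3.37 on the log2 scale without the first rod-like file and -8.35 without the second, which leaves a file with no count. The count filter left out bna-miR159a, so 2 of 3 members were tested. Without that filter it was called lower (log2 fold change -1.95, adjusted p = 0.026), a call that rests on 8, 7, 2 and 2 counts.

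Among the 391 tested miRNAs, bna-miR319b had the lowest log2 fold change and bna-miR319a the 4th lowest. Only 2.56% of the tested miRNAs, 10 in all, lay at least 2-fold lower in the rod-like files. Scaled on the known miRNAs alone, the median log2 fold change shifted by -0.50 and bna-miR319a lay at -2.32. In the main fit the known miRNAs had a median of 0.41 on the log2 scale, opposite in sign to both miR319 members, and all 391 had a median of -0.01. That sign depends on the scaling, as the known miRNAs had a median of -0.09 when scaled on themselves alone. As a summed family, miR319 was called lower as well (log2 fold change -2.18, adjusted p = 4.9e-11, edgeR), where 27.8% of 36 families were lower and 50.0% higher. The family fit was scaled on the known families alone, unlike the values of single members. With the scaling factors of the single miRNA fit, the family had a log2 fold change of -1.93. The split of families, 10 lower and 18 higher, became 13 and 12 with DESeq2's size factors. Scaling by the total count gave 8 lower and 22 higher, and the factors of the single miRNA fit gave 8 and 21.

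**Figure D2:**
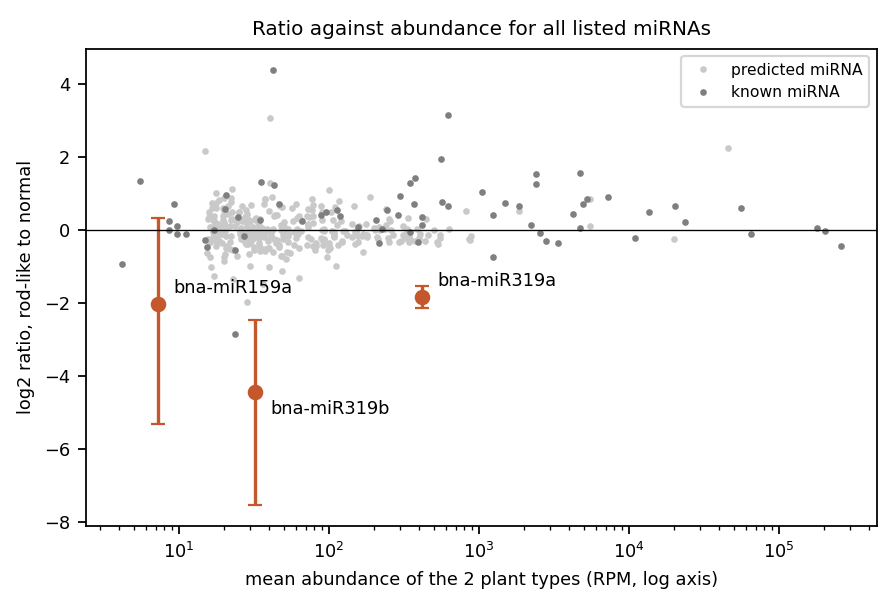
The log2 ratio of rod-like to normal abundance against mean abundance (RPM, log axis) for the listed miRNAs with reads in both plant types, predicted in light grey and known in dark grey. Orange points are the members with their 95% counting intervals: bna-miR319a at -1.82, bna-miR319b at -4.42 and bna-miR159a at -2.02.

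Within a file, where no scaling enters, bna-miR159a held a like share of the counts of both families in all 4 files. Its share in the normal files was 1.74% and 1.49%, and 1.65% and 1.40% in the others. On mean counts it was 1.61% (exact binomial 95% interval 0.677 to 3.22) in normal and 1.52% (0.184 to 5.37) in rod-like plants, which is 60.9 and 65.0 miR319 counts per miR159 count. A change between plant types smaller than these intervals was not detectable at this depth. The make-up of the miR319 family differed more. In normal files bna-miR319b was 8.43% and 8.86% of miR319 counts, and in rod-like files 0% and 2.84%. From mean counts it was 8.64% (6.23 to 11.6) in normal and 1.54% (0.187 to 5.45) in rod-like plants, and these intervals do not overlap.

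The abundance of bna-miR159a was low by rank. It stood 65th of the 74 known miRNAs in the normal files and tied for 72nd in the rod-like files. By the same ranking bna-miR319a went from 27th to 44th and bna-miR319b from 50th to a tie for 72nd.

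Other miRNAs of the same developmental settings did not all move with miR319. The leaf growth list held miR164, miR319 and miR396, since TCP factors act on miR164 and miR396 genes in Arabidopsis, and miR396 had no listed miRNA here. Of its 4 members, all tested, the 2 miR319 members were lower and the 2 miR164 members higher, with a median of -0.49 on the log2 scale. Of miR164, which acts on CUC boundary genes, bna-miR164a stood at 2384 RPM in normal and 7005 RPM in rod-like plants (log2 fold change 1.56). The other member, bna-miR164b-d, stood at 3769 and 6754 RPM (0.84), with a log2 fold change of 0.35 when scaled on known miRNAs alone.

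The list of miRNAs that act on MYB factors held miR159, miR828 and miR858, with no miR828 listed. Its 1 tested member, bna-miR858, was lower, with 25 and 28 counts in normal and 5 and 3 counts in rod-like files (log2 fold change -2.80). Among the 65 known miRNAs tested, bna-miR858 was the one with a log2 fold change between those of the 2 miR319 members. The phase change list, miR156 and miR172, had 6 of 7 tested members higher, none lower and a median of 0.60 on the log2 scale. With scaling on known miRNAs alone, 4 of the 7 were higher and 2 lower, bna-miR156d-f and bna-miR156h, and the median was 0.10. Of 65 known miRNAs tested, 16.9% were lower and 52.3% higher, 11 and 34 miRNAs, but 23 and 22 were when scaled on known miRNAs alone.

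In the degradome, 3 names stood for these families, ath-miR319c, bra-miR319-3p and ath-miR159a. Each record names a transcript and a position on it, with the score, category (0 to 3) and P-value that the authors' target caller gave. In all 69 records the score equalled 1 for each unpaired column and 0.5 for each G-U wobble column of the alignment, so a lower score means closer pairing. How the categories were set is not given in the sources used here, and lower ones are taken as stronger evidence. The records have no tag counts, so the amount of cleavage at a site is not known. None of the 30 transcript identifiers matched the RefSeq gene table, and they are named by identifier alone, in which A or C stands for the subgenome and nn for an unplaced gene.

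The normal library listed 12 transcripts for miR319 and 12 for miR159, and the rod-like library 11 and 12. All 36 normal records were in category 0 (exact 95% interval 90.3 to 100%), beside 73.4% of the 282 records of other named families. In the rod-like library 27 of 33, or 81.8% (64.5 to 93.0), were in category 0, beside 90.5% of the 274 records of other named families. All of the 6 records outside category 0 belonged to miR319 and were in category 1. Records of 1 site under several names are not independent, which these intervals do not cover. In the same library, no other miRNA name, known or predicted, was listed on any transcript of these families.

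The miR319 transcripts fell into few site sequences, shown as aligned to ath-miR319c, 5′ to 3′. The capital marks the base opposite position 6 of ath-miR319c.
6 transcripts: gaggggtccccttcaGtccag
BnaA08g01260D: gaggggtccccttcaGtccat
3 transcripts: aacggggtacccttcaGtccag
BnaA05g30730D and BnaC05g45180D: aaggggcactcttcaGtccag
BnaA05g00870D and BnaC04g00500D: aaggaagttcccttgaGttcaa
BnaCnng51960D: tagagcttccttcaGtccaa
The first sequence was that of BnaA01g29050D (position 901), BnaA03g33680D and BnaC03g38850D (both position 1042), BnaC01g36430D (position 412), BnaA05g24520D (position 649) and BnaCnng59700D (position 973), each with a score of 3.5. The third was that of BnaA05g11640D, BnaA05g11650D and BnaC04g13290D, all at position 862 with a score of 4. Of the 15 transcripts, 8 carry A and 7 carry C identifiers, and the repeated sequences occurred on both. Transcripts of equal sequence at equal positions may share degradome tags, so their records may not be separate cleavage events.

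The miR159 transcripts held another set of sites, shown as aligned to ath-miR159a. The capital marks the base opposite position 7 of ath-miR159a, which is the same place in the shifted comparison. A sequence with no capital has a gap there as printed, though the gap could equally stand at position 8, where the miRNA also has T.
6 transcripts: gagctcccttcaTtccaat
BnaA05g02890D and BnaC04g52720D: gaactcccttcatccaag
BnaCnng51960D: gagcttccttcaGtccaaa
BnaCnng06560D: gagctcccttcaAttccag
BnaC01g05150D: cagctctcttcaAactaaa
BnaA10g13060D and BnaC09g35530D: gaaccctttccAtccaga
BnaA04g21720D and BnaC04g45570D: gacccctttatcaaa
BnaA07g02590D: gatctactttcaAtgcgag
The first sequence, with a score of 2, belonged to BnaA03g22590D and BnaC03g26620D (both position 933), BnaA05g27620D and BnaCnng31260D (both position 996), BnaC04g17160D (position 873) and BnaCnng49390D (position 999). Scores rose from 1 for BnaCnng51960D at position 897 to 4.5 for BnaA04g21720D, BnaC04g45570D (both position 220) and BnaA07g02590D (position 307). The sites of BnaA05g02890D (position 1365) and BnaC04g52720D (position 1374) had a score of 2.5. The median score per alignment was 2.25 for ath-miR159a (16 alignments) and 3.5 for both ath-miR319c (15) and bra-miR319-3p (14). These medians are not on equal terms, since 19 bases were printed and scored for ath-miR159a and 21 for each miR319 name.

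The sites of the families differed opposite the base where the miRNAs themselves differ, though not there alone. All 15 miR319 sites had G there, which pairs with the C of miR319 and would form a wobble with the T of miR159. Of the 16 miR159 sites, 6 had T, which pairs with neither miRNA, 5 had A, which pairs with the T of miR159 alone, 4 had a gap and 1 had G. Sites are counted per transcript, and several share a sequence: all 6 with T had the same one. The 4 gaps could equally stand at position 8 of ath-miR159a, also T, which would put an A at this place. With the other family's base at this place, the score of every miR319 site would be 0.5 higher. The score would be 1 higher at the 5 miR159 sites with A and, with gaps as printed, unchanged at the 10 with T or a gap. It would be 0.5 lower at the 1 with G, that of BnaCnng51960D. Sites were listed for their pairing with the named miRNA, and no record of either library scored above 4.5. The bases found there and the direction of these score changes are therefore in part built in by the listing.

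Pairing elsewhere differed too. Positions 2, 3, 5, 6, 7, 9, 10, 11, 16, 18 and 20 of ath-miR319c were paired in all 15 sites, without wobble. Position 1 was a wobble in 11 of them, and position 14 was unpaired in 9, by a gap in 7 and a mismatch in 2. Position 17 was paired in 3 and a wobble in 12, while the like base of ath-miR159a, position 18, was paired in all 16. In ath-miR159a, position 7 was paired or in a wobble in 6 of 16 sites (37.5%), and positions 10, 11, 16 and 18 were paired in all 16. Sites are counted per transcript with gaps as printed, so a site sequence on several transcripts counts several times. Position 1 of ath-miR159a, which has no counterpart in ath-miR319c, was unpaired in 6 of 16. The alignments had no gap for 10 of 16 ath-miR159a sites, and for 2 of 15 ath-miR319c and 2 of 14 bra-miR319-3p sites.

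**Figure D3:**
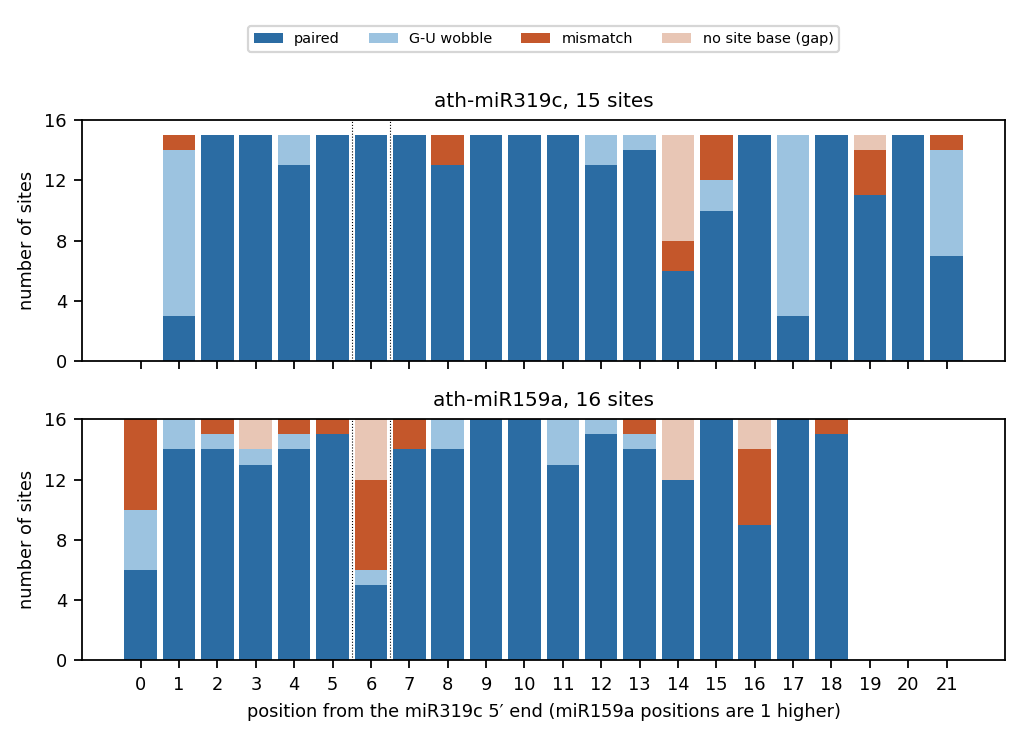
Number of sites that are paired, in a G-U wobble, mismatched or without a base at each position of ath-miR319c (15 sites, top) and ath-miR159a (16 sites, bottom), with the miR159a positions shifted by 1 so that like bases stand above each other. Dotted lines frame position 6, where the miRNAs differ: all 15 miR319 sites are paired there and 6 of 16 miR159 sites are paired or in a wobble. Sites are counted per transcript, with gaps as printed.

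Within a library the families shared no transcript: 0 of 12 and 12 in normal, and 0 of 11 and 12 in rod-like apices. Over both libraries they shared 1, BnaCnng51960D, which is 1 of 15 miR319 and 1 of 16 miR159 transcripts. In the normal library it was listed for ath-miR159a at position 897 with a score of 1, the lowest of any miR159 record, category 0 and P-value 0.008. In the rod-like library it was listed for ath-miR319c at position 896 with a score of 2.5, category 0 and P-value 0.022. The 2 alignments cover the same place, with 18 bases in common, and the positions differ by 1 base, as do the 5′ ends of the miRNAs. No record of bra-miR319-3p was listed for it, while each of the other 14 miR319 transcripts was listed under both miR319 names. Among all named families, 4 of 196 transcripts of the normal library were listed under more than 1 family, all of them under miR161 and miR5654, and 0 of 190 were in rod-like apices.

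Each family had 8 transcripts that were listed in both libraries, always at the same position. For miR319 these were 66.7% of the normal and 72.7% of the rod-like list, and for miR159 66.7% of each list. As a share of all transcripts listed for the family this was 53.3% (exact 95% interval 26.6 to 78.7) for miR319 and 50.0% (24.7 to 75.3) for miR159. For other named families it was 68.1% (61.3 to 74.5) of 204 pairs of family and transcript. These intervals take transcripts as independent, which transcripts of equal site sequence may not be. All 8 miR159 transcripts and 7 of the 8 miR319 transcripts had the same category in both, and BnaA08g01260D (position 892, score 4) went from category 0 in normal to category 1 in rod-like. With 1 library per plant type, no test was made.

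Listed in the normal library alone for miR319 were BnaA05g00870D (position 1183) and BnaC04g00500D (position 1171), both with a score of 3, and BnaA05g24520D and BnaCnng59700D. In the rod-like library alone were BnaA05g30730D and BnaC05g45180D, both at position 1024 in category 1, with scores of 2.5 for ath-miR319c and 3 for bra-miR319-3p, and BnaCnng51960D. So the sites that end in gttcaa were listed in the normal library alone and those with cactcttcag in the rod-like library alone, each on 1 A and 1 C transcript. The site class of 6 transcripts was listed on all 6 in normal and on 4 in rod-like apices.

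For miR159, BnaA07g02590D, BnaC01g05150D (position 2664, score 3), BnaCnng06560D (position 2235, score 2) and BnaCnng51960D were listed in the normal library alone. In the rod-like library alone were BnaA04g21720D and BnaC04g45570D, and BnaA10g13060D (position 1918) and BnaC09g35530D (position 1975), which had a score of 4. All 16 miR159 transcripts were in category 0 wherever they were listed. The 6 transcripts of the site class gagctcccttcaTtccaat were listed in both libraries.

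**Figure D4:**
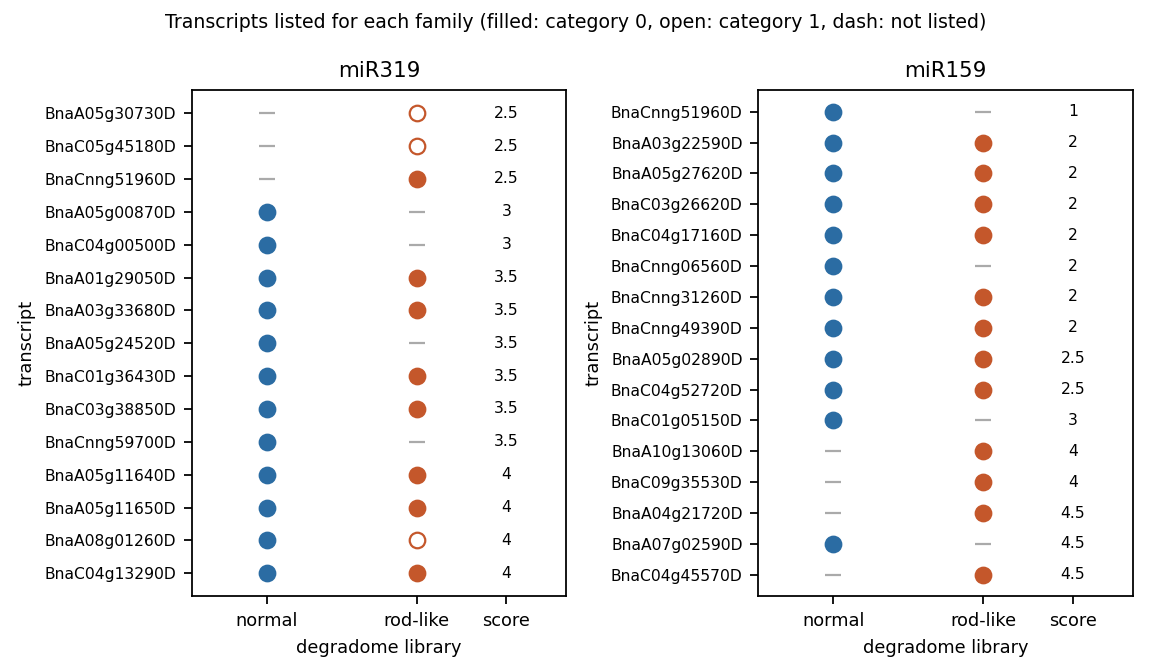
Transcripts listed for miR319 (15, left) and miR159 (16, right) in the normal (blue) and rod-like (orange) degradome library, ordered by their lowest score, which is printed at the right of each panel. Filled circles are category 0, open circles category 1 and dashes mark transcripts not listed; each family has 8 transcripts in both libraries, and BnaCnng51960D appears on opposite sides of the 2 panels.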

How the data were processed

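The authors deposited raw counts of reads for each miRNA, and degradome records with a score, category and P-value from the authors' target caller, per the file headers. Small RNAs of 18 to 30 nt and the 5′ ends of polyadenylated cleaved RNA were sequenced, per the labels' protocols. No mapper, target caller or transcript annotation is named in those protocols, and reads of near-identical members could have been split by the counting. Known and predicted miRNAs were fitted together with edgeR 4.0.16 in R 4.3.3 (TMM, filterByExpr, robust quasi-likelihood test, Benjamini-Hochberg threshold 0.05). The code was checked on simulated independent files, a setting unlike files that stand for 1 sample, so that check does not bear on the p-values here. DESeq2 1.42.0, other scalings, no filter, a replicate block and each file left out were alternatives. Ratio intervals are exact and conditional on mean counts per file. Because PCR copies are not separate molecules, intervals and floors (3 counts) cover counting error only. Records were parsed and sites compared in Python 3.11.15 with pandas 2.3.3 and SciPy 1.17.1. Named are all members, the lists and every transcript listed. Members and lists were chosen with earlier results of these data known.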

Additional observations from a re-analysis of the deposited data

How the results depend on the processing

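The direction of both miR319 members and their call as lower held under every scaling, without the count filter, with DESeq2's Wald test, with the block and with each file left out; the adjusted p reached at most 0.0012 for bna-miR319a and 0.027 for bna-miR319b, both with the replicate block. The ratio of bna-miR319a was 0.283 and became 0.201 with scaling on known miRNAs alone. Calls over all miRNAs numbered 110 and were 45 of 65 in the fit on known miRNAs alone (fewer miRNAs tested), 57 with DESeq2's Wald test, 53 with the replicate block and 71 to 87 with a file left out, lowest without normal replicate 1; the cause was not tested for the others. Family calls ranged from 26 to 28 with a file left out. The replicate numbers give no pairing: deviations of same-numbered files correlated at -0.09 over 109 miRNAs. Positions of the 2 families over both libraries shared none exactly and 1 within 1 base, also 1 within 5 bases, an alternative chosen after seeing the data. Records in categories 0 and 1, or with a P-value up to 0.05, were all the records of both families. The interval of the bna-miR159a ratio excluded 1 from summed counts (0.0594 to 0.772) and with scaling on known miRNAs alone, and included it with the other scalings. Depth limits bna-miR159a and, in rod-like files, bna-miR319b.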

Other observations

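In category 0, all records of a name in a library carried the same P-value, whatever the site. All 12 ath-miR159a records had a P-value of 0.008 in normal and of 0.004 in rod-like apices, whether the score was 2 or 4.5. The category 0 records of ath-miR319c had 0.024 and 0.022, in the same order, and those of bra-miR319-3p 0.018 and 0.026. In category 1, found in the rod-like library alone, this held for ath-miR319c, with 0.002 for all 3 records, but not for bra-miR319-3p. For bra-miR319-3p, BnaA05g30730D was listed with 0 and BnaC05g45180D with 0.038, at the same score of 3.

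The number of listed transcripts did not follow the counts of the small RNA files in these families. With a mean of 7.5 counts per normal file and 2 per rod-like file, miR159 was listed for 12 transcripts in each library, while miR319, with 457 and 130 counts, was listed for 12 and 11. Listed transcripts are not an amount of cleavage, and the names differ between the data types. The title of the rod-like degradome carries the number 3, while the rod-like small RNA samples are numbered 1 and 2, so the data types may not come from the same RNA.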
